A study of Mus musculus with 22 samples.

Results

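Expression of 10 genes of the olfactory bulb and the tip of the forebrain was followed through 20 whole-brain libraries of newborn mice: *Tbx21*, *Cdhr1*, *Eomes*, *Doc2g*, *Sp8*, *Fezf1*, *Omp*, *Ms4a15*, *Prss56* and *Frmd7*. They are 10 of 55409 genes in the table of the PWS-cr series and 10 of 55406 in the table of the PWS-IC series, and all 10 passed the filter on low counts in both. The genes were chosen by their measured values: they were selected on varying together between libraries and on differing between PWS-IC and wild-type brains in earlier readings of these data. Their values in that contrast, their similarity to each other and their spread between libraries are therefore a description and carry no test. The other contrasts, PWS-cr against wild type and female against male, did not themselves enter the choice and were tested gene by gene. Their libraries did enter it, through varying together, so these tests are not independent of the choice. The spread between libraries, which bears on the choice, is also the error that these tests use. Genes chosen on varying together can share a direction in any contrast, so counts of direction over the 10 are a description there too.

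The study set newborn brains of 2 mouse models of Prader-Willi syndrome (PWS) beside those of wild-type littermates. PWS-cr mice are heterozygous and lack the paternal copy of the critical interval with the *Snord116* small nucleolar RNAs and *Ipw*, while PWS-IC mice lack the paternal imprinting centre, without which the paternally expressed genes of the whole locus stay silent. Each library holds polyadenylated RNA of the whole brain of 1 untreated pup at postnatal day 0, and the strain of these pups was not stated: the study's methods name the PWS-cr line B6(Cg)-Snord116tm1Uta/J and give a cross to CD1 females for its adult behavioural mice only. There were 6 PWS-cr libraries (3 male, 3 female) and 5 wild-type libraries (3 male, 2 female) from litters 1 to 4, and 4 PWS-IC libraries (all labelled female) and 5 wild-type libraries (1 female, 4 male as labelled) from litters 1 and 4. The first number of a library's name gives its litter and its ending the series, so that 1_5_Cr is a pup of litter 1 in the PWS-cr series.

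Total counts ranged from 45798407 to 62103143 per library. *Snhg14*, the host transcript of *Snord116*, named here as a label check outside the rule for named genes, had 41.8 to 48.8 CPM (counts scaled to library size) in the 6 PWS-cr libraries and 131 to 158 CPM in their 5 wild-type libraries. In the PWS-IC series *Snrpn*, a paternally expressed gene of the locus, had 8.003, 4.82 and 6.62 CPM in 1_10_IC, 4_4_IC and 4_5_IC, against 285, 251, 252 and 240 CPM in the wild-type libraries 1_1_IC, 1_5_IC, 4_3_IC and 4_6_IC. Both remaining libraries went against their labels: the library labelled PWS-IC female 1_3_IC had 390 CPM of *Snrpn* and 64 counts of the X-inactivation RNA *Xist*, and the library labelled wild-type male 1_7_IC had 5.59 CPM of *Snrpn* and 124574 counts of *Xist*. The Y-linked gene *Eif2s3y* had 3191 counts in 1_3_IC and 9 counts in 1_7_IC. *Snhg14* was less clear in 1_3_IC, at 69.9 CPM, between the 18.6 to 24.1 CPM of the 3 other PWS-IC libraries and the 155 to 212 CPM of the 4 other wild types, while 1_7_IC had 18.7 CPM. Neither library was reassigned, and the PWS-IC fold changes are given for all 9 libraries and for the 7 others. Among the 7 others all 3 PWS-IC brains came from females, but just 1 of 4 wild-type brains did, so that sex and genotype largely cannot be told apart there.

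The olfactory bulb is the most rostral part of the mouse brain and the first relay of smell. Axons of sensory neurons in the nose end in its glomeruli on the dendrites of mitral and tufted cells, the projection neurons of the bulb, and local interneurons that migrate in from the ventral forebrain shape their output. T-box factors mark the projection neurons, zinc finger factors such as Sp8 mark a share of the interneurons, and glia of the olfactory nerve ensheath the incoming axons. In whole-brain RNA, fewer cells of a type and less RNA per cell cannot be told apart, and this holds for every level below.

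The 10 genes lie on 9 chromosomes of mm10 (GRCm38), and *Ms4a15* (chr19:10978307-10993250) and *Doc2g* (chr19:4003313-4007005) are the only pair on one chromosome. *Tbx21* spans chr11:97098071-97115331, *Cdhr1* chr14:37077857-37098347, *Prss56* chr1:87183313-87188405 and *Frmd7* chrX:50895180-50942710. *Eomes* spans chr9:118478212-118486132, *Sp8* chr12:118846329-118852576, *Fezf1* chr6:23245044-23248362 and *Omp* chr7:98143359-98145502. Counts of overlapping genes are uncertain: reads were not stranded, and strand would not separate genes on the same strand. *Doc2g* shares 1926 exon bases, 63.5% of its exon bases, with the predicted gene *Gm49405* on the same strand, *Eomes* shares 118 bases (2.84%) with *Gm33460* on the opposite strand, and *Omp* lies inside *Capn5* on the same strand without sharing exon bases. The other 7 genes overlap no annotated gene.

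Of the 10 genes, *Tbx21*, *Cdhr1*, *Ms4a15*, *Prss56* and *Frmd7* rose and sank together most closely, a subset picked out after its values were seen. Their promoters are printed because genes that move together invite the question whether their start regions share letters. Each runs 5′ to 3′ on the gene's strand from 250 bases before to 50 bases after the start that RefSeq gives on GRCm38.p6, and capitals mark the GC box GGGCGG, the only searched motif that any of the 5 holds. They lie at chr11:97115282-97115581 (minus strand, *Tbx21*), chr14:37098298-37098597 (minus, *Cdhr1*), chr19:10993201-10993500 (minus, *Ms4a15*), chr1:87183064-87183363 (plus, *Prss56*) and chrX:50942720-50943019 (minus, *Frmd7*).
Tbx21: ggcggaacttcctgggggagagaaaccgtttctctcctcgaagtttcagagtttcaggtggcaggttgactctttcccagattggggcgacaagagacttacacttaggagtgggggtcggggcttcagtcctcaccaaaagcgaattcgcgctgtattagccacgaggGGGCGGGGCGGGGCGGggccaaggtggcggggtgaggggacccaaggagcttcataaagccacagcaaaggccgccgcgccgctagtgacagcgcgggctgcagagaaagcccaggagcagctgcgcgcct
Cdhr1: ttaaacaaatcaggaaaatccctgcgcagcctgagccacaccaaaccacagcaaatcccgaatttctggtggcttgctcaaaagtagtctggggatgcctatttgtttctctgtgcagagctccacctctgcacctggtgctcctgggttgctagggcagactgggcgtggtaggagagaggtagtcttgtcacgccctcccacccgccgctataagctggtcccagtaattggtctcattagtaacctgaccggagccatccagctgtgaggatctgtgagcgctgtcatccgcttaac
Ms4a15: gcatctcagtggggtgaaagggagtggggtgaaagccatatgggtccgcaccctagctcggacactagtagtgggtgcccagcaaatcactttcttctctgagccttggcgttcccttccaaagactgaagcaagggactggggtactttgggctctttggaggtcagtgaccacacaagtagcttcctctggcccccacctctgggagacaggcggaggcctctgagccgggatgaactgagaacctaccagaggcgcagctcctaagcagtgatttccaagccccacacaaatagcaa
Prss56: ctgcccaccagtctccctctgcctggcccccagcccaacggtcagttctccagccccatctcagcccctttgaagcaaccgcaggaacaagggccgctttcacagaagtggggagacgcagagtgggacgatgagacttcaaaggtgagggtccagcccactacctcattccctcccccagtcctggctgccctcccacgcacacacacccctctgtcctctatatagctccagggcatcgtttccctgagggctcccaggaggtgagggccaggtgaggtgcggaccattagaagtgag
Frmd7: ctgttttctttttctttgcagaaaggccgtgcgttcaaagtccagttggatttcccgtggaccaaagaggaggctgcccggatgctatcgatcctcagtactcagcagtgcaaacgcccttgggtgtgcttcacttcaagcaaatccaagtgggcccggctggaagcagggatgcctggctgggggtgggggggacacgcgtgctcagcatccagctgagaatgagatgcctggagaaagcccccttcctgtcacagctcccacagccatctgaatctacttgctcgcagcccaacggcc

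RefSeq promoters were matched for 9 of the 10 genes, all but *Omp*, in 11 windows, since *Sp8* has 3 annotated starts. The T-box motif GGTGTGA stood in the windows of 0 of the 9 genes on either strand, against 3.98% of all 32851 promoter windows. The motif of the early B-cell factors (EBF), CCCNNGGGA, also stood in 0 of 9, against 6.56% of all windows, and the homeodomain core TAATTA in 1 of 9, a start of *Sp8*, against 5.29%. The GC box stood in 3 of 9, against 35.7% of all windows: as 3 overlapping copies in *Tbx21* that begin 81, 76 and 71 bases before the start, and once each in *Fezf1* and *Sp8*. Counts of the 9 are per gene, with 3 windows for *Sp8*, while the shares are per window, so they are not like for like. These searches describe letters in 300-base windows and say nothing of binding.

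Per transcript length, levels spanned a wide range. By the deposited TPM, a unit that divides counts by transcript length, the median order over the 11 PWS-cr series libraries was *Cdhr1* (21.1 TPM), *Eomes* (19.9), *Sp8* (11.5), *Fezf1* (7.46), *Doc2g* (6.28), *Frmd7* (1.54), *Prss56* (0.983), *Tbx21* (0.935), *Omp* (0.626) and *Ms4a15* (0.507 TPM). Ranges over libraries of neighbours in this order overlapped, except that *Doc2g* (4.85 to 7.21 TPM) stood wholly above *Frmd7* (0.475 to 4.66 TPM). In the 9 PWS-IC series libraries the order was the same except that *Ms4a15* (median 1.39 TPM) stood before *Omp* (0.655 TPM), and all neighbours overlapped.

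*Cdhr1*, a cadherin-related protein of photoreceptors that bulb projection neurons also make, was the most abundant of the 10. It had 17.7 CPM in the lowest, 38.3 in the median and 59.5 in the highest PWS-cr library, against 22.4, 15.3, 30.3, 15.6 and 22.1 CPM in the wild-type libraries 1_3_Cr, 3_1_Cr, 3_6_Cr, 4_1_Cr and 4_2_Cr. The 3 highest libraries, 1_1_Cr, 1_2_Cr and 2_2_Cr at 59.5, 57.6 and 52.0 CPM, were PWS-cr brains, but the other 3 PWS-cr brains lay at 17.7 to 24.5 CPM among the wild types. The fitted PWS-cr over wild-type log2 fold change was 0.36 ± 0.37 (SE), with a 95% interval of -0.54 to 1.27.

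*Tbx21*, the T-box factor T-bet, is a defining gene of mitral and tufted cells. It had 0.216, 1.23 and 2.43 CPM in the lowest, median and highest PWS-cr library, against 0.638, 0.261, 0.828, 0.447 and 0.437 CPM in 1_3_Cr, 3_1_Cr, 3_6_Cr, 4_1_Cr and 4_2_Cr. Again 1_1_Cr, 1_2_Cr and 2_2_Cr stood above every wild type (2.19, 2.43 and 1.88 CPM), while 1_5_Cr and 4_3_Cr lay near the lowest of them (0.276 and 0.216 CPM). The log2 fold change was 0.35 ± 0.67 (95% interval -1.29 to 1.99).

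*Eomes*, the T-box factor Tbr2 of projection neurons that intermediate progenitors of the cortex also express, varied far less. It had 13.5, 24.7 and 31.4 CPM in the lowest, median and highest PWS-cr library, against 20.3, 20.5, 28.8, 13.4 and 16.9 CPM in the wild-type libraries in the same order. The groups overlapped over nearly their whole range, and the log2 fold change was 0.07 ± 0.21 (95% interval -0.44 to 0.58).

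*Doc2g*, a double C2-domain protein found in projection neurons, was the steadiest gene of the set in the PWS-cr series. Its PWS-cr libraries had 4.25, 4.74 and 5.52 CPM (lowest, median, highest), against 5.29, 5.07, 4.25, 5.13 and 3.66 CPM in the wild types. No library stood apart, and the log2 fold change of -0.05 ± 0.13 had a 95% interval of -0.36 to 0.26.

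*Sp8*, a zinc finger factor of interneurons that move from the ventral forebrain to the bulb, had 6.45, 14.2 and 19.4 CPM in the lowest, median and highest PWS-cr library, against 15.7, 12.9, 13.3, 13.4 and 11.5 CPM in the wild types. PWS-cr brains lay on both sides of the narrow wild-type range: 1_5_Cr (6.45 CPM) and 3_5_Cr (9.61 CPM) below it, and 1_1_Cr, 1_2_Cr and 2_2_Cr (15.9, 19.4 and 17.7 CPM) above it. The log2 fold change was -0.20 ± 0.26 (95% interval -0.83 to 0.43).

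*Fezf1*, a zinc finger factor of the rostral forebrain and the olfactory epithelium, had its own pattern. It had 0.221, 3.90 and 6.07 CPM in the lowest, median and highest PWS-cr library, against 4.30, 4.79, 4.48, 5.24 and 5.64 CPM in the wild types. Only 1_5_Cr (12 counts, 0.221 CPM) and 3_5_Cr (58 counts, 1.08 CPM) were far below the rest, both of them PWS-cr brains, and the 4 other PWS-cr brains had 3.81 to 6.07 CPM. The log2 fold change of -0.84 ± 0.64 had a 95% interval of -2.41 to 0.74, and was -0.38 without 3_5_Cr. In both libraries the sum of 19 *Hox* genes of the caudal hindbrain and spinal cord was among the 3 highest of the series (104 and 123 CPM), but so was that of 4_3_Cr (96.9 CPM), whose *Fezf1* level was 3.81 CPM. The part of caudal tissue in the *Fezf1* levels was not tested.

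*Omp*, the olfactory marker protein of mature sensory neurons in the nose, was near the limit of these libraries, with 10 to 54 counts each. It had 0.186, 0.360 and 0.565 CPM in the lowest, median and highest PWS-cr library, against 0.188, 0.335, 0.378, 1.01 and 0.333 CPM in the wild types. Only the wild-type library 4_1_Cr (54 counts) stood apart, and the log2 fold change was -0.36 ± 0.45 (95% interval -1.47 to 0.75) with it and 0.03 without it.

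*Ms4a15*, of the MS4A family of membrane proteins, had the widest range. It had 0.0368, 0.677 and 1.82 CPM in the lowest, median and highest PWS-cr library, against 0.281, 0.0186, 0.414, 0.0745 and 0.104 CPM in the wild types, the lowest of which rested on 1 count. Counts of 83, 71 and 60 in 1_1_Cr, 1_2_Cr and 2_2_Cr stood beside 2 counts each in the PWS-cr brains 1_5_Cr and 4_3_Cr. The log2 fold change was 0.88 ± 1.03 (95% interval -1.63 to 3.39).

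*Prss56*, a serine protease known for its part in eye size, had 0.0919, 1.12 and 2.37 CPM in the lowest, median and highest PWS-cr library, against 0.525, 0.0372, 0.828, 0.0932 and 0.250 CPM in the wild types. *Frmd7*, a FERM-domain protein known from inherited nystagmus, had 0.257, 1.42 and 2.45 CPM in the lowest, median and highest PWS-cr library, against 0.994, 0.391, 1.12, 0.690 and 0.625 CPM in the wild types. In both genes 1_1_Cr, 1_2_Cr and 2_2_Cr were above all wild types and 1_5_Cr near or below the lowest. Log2 fold changes were 0.77 ± 0.87 for *Prss56* and 0.24 ± 0.58 for *Frmd7*.

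**Figure D1:**
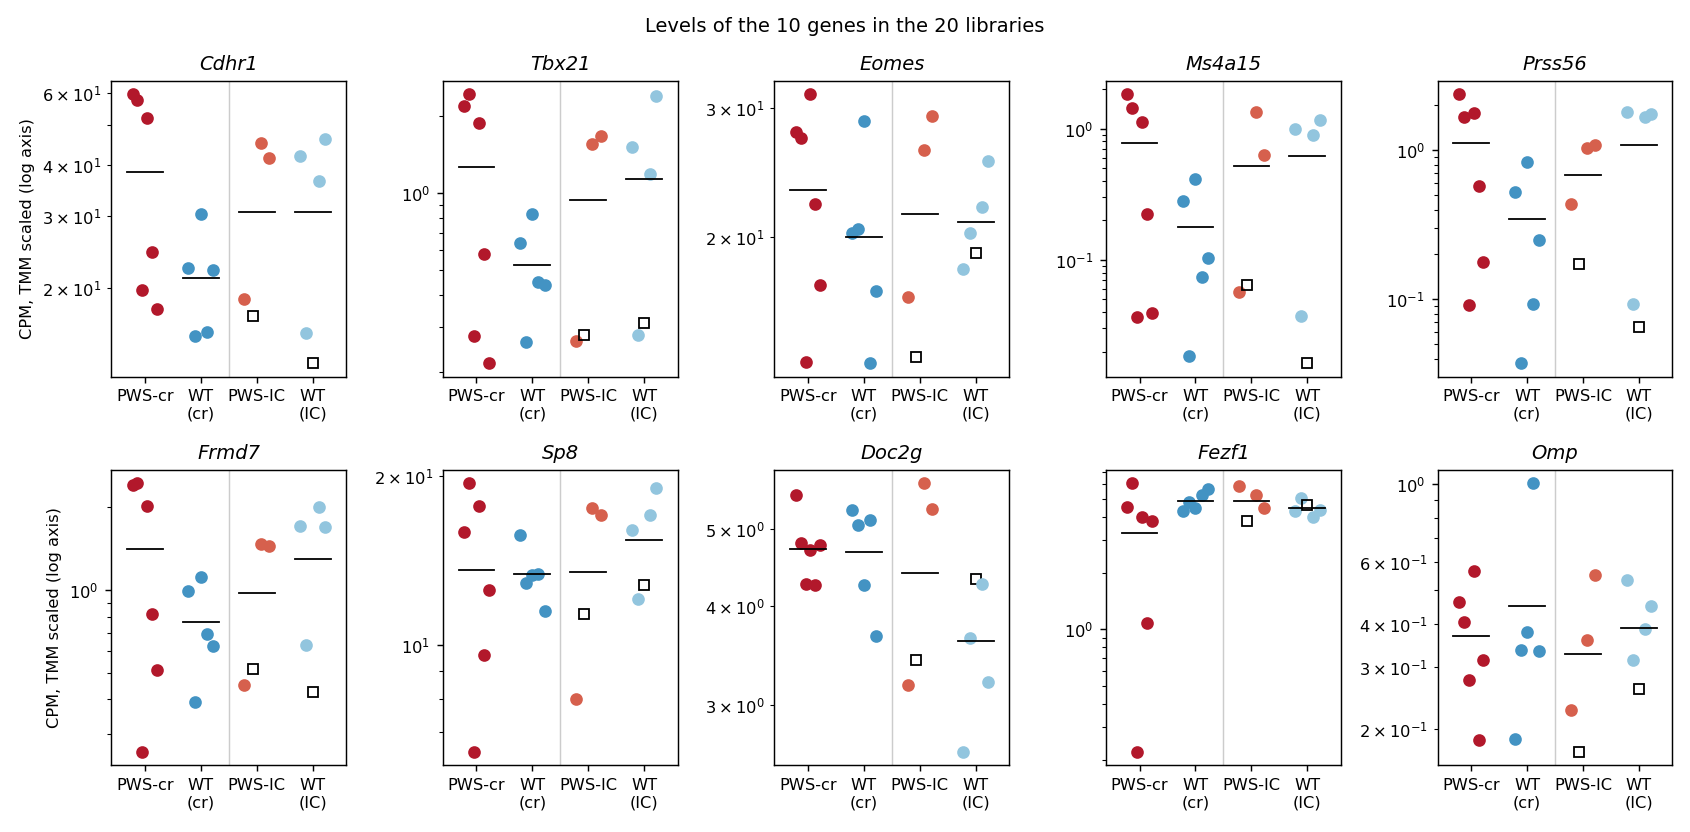
Levels of each gene in CPM on a log axis, 1 point a library, with the 6 PWS-cr and 4 PWS-IC libraries left of their wild-type littermates (WT) and the group mean as a bar. Open squares are 1_3_IC and 1_7_IC, whose RNA went against their labels, and in every panel the mutant and wild-type points overlap.

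None of the 10 genes passed the test of PWS-cr against wild type: edgeR called 0 of 10 at an adjusted p under 0.05, against 3 of 22172 genes (0.0135%), DESeq2 called 0 of 10 and 7 genes in all, and 0 of 10 had an unadjusted p under 0.05, against 459 genes. Adjusted p was 1 for each of the 10 in edgeR. Among them 6 were higher and 4 lower in PWS-cr brains, with a median log2 fold change of 0.16, against 0.0034 over all genes tested. For 0 of 10 did the 6 PWS-cr and the 5 wild-type libraries separate without overlap, against 0.171% of all genes. These calls do not show that levels were equal, since the 95% intervals reached past a log2 change of 1 in at least 1 direction for *Tbx21*, *Cdhr1*, *Ms4a15*, *Prss56*, *Frmd7*, *Fezf1* and *Omp*. Spread between libraries of a group was large in most of the genes. Their rank in spread is a description, since varying together between libraries was part of how they were chosen. The biological coefficient of variation, the fitted spread between pups, was 0.866 in *Ms4a15*, 0.798 in *Prss56*, 0.631 in *Fezf1* and 0.571 in *Tbx21*, each at or above the 99.5th percentile of all genes, and 0.136 in *Doc2g*, at the 67.7th percentile.

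Litters with both genotypes did not point one way for 8 of the 10 genes. Within litter 1 the log2 difference, PWS-cr minus wild type on log2(CPM + 0.05), was 0.83 for *Tbx21* and 0.86 for *Cdhr1* (3 PWS-cr, 1 wild type), within litter 3 it was 0.26 and 0.19 (1 and 2), and within litter 4 it was -0.89 and -0.07 (1 and 2). *Fezf1* was lower in PWS-cr brains in all 3 litters, at -1.14, -2.05 and -0.51 on this scale, although in litter 1 only the mean was lower and the groups overlapped. *Prss56* was higher in PWS-cr brains in all 3 litters, at 0.54, 1.18 and 0.13, with overlapping groups in each. Litter 2 was represented only by the PWS-cr brain 2_2_Cr, because no counts were given for its labelled wild-type littermate. With litter as a term, 2_2_Cr therefore adds nothing to the fitted genotype difference. Without 1_3_Cr, the only wild-type brain of litter 1, the fitted log2 fold change turned to -0.36 for *Tbx21*, -0.26 for *Ms4a15* and -0.11 for *Frmd7*, and was 0.0042 for *Cdhr1*.

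Between the sexes of the PWS-cr series, all 10 genes had lower fitted levels in female than in male brains, with a median log2 difference of -0.55, against -0.0014 over all genes, and none passed the test. edgeR called 0 of 10, against 7 of 22172 genes (0.0316%), DESeq2 called 0 of 10 and 16 in all, and 0 of 10 had an unadjusted p under 0.05, against 601 genes. The difference was -1.06 ± 0.57 for *Tbx21*, -1.54 ± 1.02 for *Ms4a15*, -0.70 ± 0.53 for *Frmd7* and -0.42 ± 0.32 for *Cdhr1*. Without the female PWS-cr library 1_5_Cr the sign turned for *Prss56* (0.35), *Eomes* (0.10), *Sp8* (0.02) and *Doc2g* (0.01), so the shared direction rested in part on 1 brain. The 10 genes were chosen on varying together, so their shared direction and median are a description and not 10 separate observations.

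In the PWS-IC series the same libraries were again high or low for several genes at once. *Cdhr1* had 18.8, 17.1, 45.3 and 41.5 CPM in the libraries labelled PWS-IC (1_10_IC, 1_3_IC, 4_4_IC and 4_5_IC), against 42.1, 15.5, 13.1, 36.4 and 46.3 CPM in those labelled wild type (1_1_IC, 1_5_IC, 1_7_IC, 4_3_IC and 4_6_IC). *Tbx21* had 0.264, 0.280, 1.55 and 1.67 CPM in the libraries labelled PWS-IC, against 1.51, 0.279, 0.310, 1.19 and 2.40 CPM in those labelled wild type. All 4 libraries of litter 4 were high whatever their genotype, and of the 5 in litter 1 only the wild-type library 1_1_IC was.

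*Ms4a15* had 0.0565, 0.0645, 1.34 and 0.629 CPM in the libraries labelled PWS-IC in the same order, against 0.998, 0.0371, 0.0163, 0.887 and 1.15 CPM in those labelled wild type. *Prss56* had 0.433, 0.172, 1.04 and 1.08 CPM in the libraries labelled PWS-IC, against 1.81, 0.0928, 0.0652, 1.67 and 1.76 CPM in those labelled wild type. *Frmd7* had 0.452, 0.516, 1.48 and 1.45 CPM in the libraries labelled PWS-IC, against 1.70, 0.631, 0.424, 2.01 and 1.70 CPM in those labelled wild type. All 3 genes followed the split of *Cdhr1*, and *Ms4a15* came down to 1 to 3 counts in each of 1_10_IC, 1_3_IC, 1_5_IC and 1_7_IC.

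*Eomes* had 16.5, 13.7, 26.3 and 29.3 CPM in the libraries labelled PWS-IC, against 18.1, 20.2, 19.0, 21.96 and 25.4 CPM in those labelled wild type. *Sp8* had 8.003, 11.4, 17.5 and 17.1 CPM in the libraries labelled PWS-IC, against 16, 12.1, 12.8, 17.1 and 19.0 CPM in those labelled wild type. For both genes each library of litter 4 was higher than every library of litter 1, within a range of 2.15 and 2.38 times between the extremes. *Doc2g* had 3.18, 3.42, 5.71 and 5.30 CPM in the libraries labelled PWS-IC, against 2.62, 3.64, 4.32, 4.27 and 3.21 CPM in those labelled wild type. *Fezf1* had 5.84, 3.83, 5.24 and 4.46 CPM in the libraries labelled PWS-IC, against 4.30, 5.03, 4.63, 4.00 and 4.36 CPM in those labelled wild type. Neither *Doc2g* nor *Fezf1* followed *Cdhr1*: 1_1_IC, among the highest for *Cdhr1*, was the lowest library for *Doc2g*, and *Fezf1* kept to a range of 1.53 times. *Omp* had 0.226, 0.172, 0.359 and 0.550 CPM in the libraries labelled PWS-IC, against 0.534, 0.316, 0.261, 0.385 and 0.450 CPM in those labelled wild type, from 8 to 35 counts.

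As a description of the contrast that chose the genes, 8 of 10 were lower and 2 higher in the 4 libraries labelled PWS-IC than in the 5 labelled wild type, with a median log2 fold change of -0.32, against 0.0037 over all genes. In the 7 libraries without 1_3_IC and 1_7_IC, 7 were lower and 3 higher, with a median of -0.27, and *Eomes* changed sign (-0.08 in the 9, 0.07 in the 7). Fitted log2 fold changes were -0.87 ± 0.75 for *Prss56*, -0.85 ± 0.88 for *Ms4a15*, -0.69 ± 0.52 for *Tbx21*, -0.63 ± 0.36 for *Frmd7* and -0.18 ± 0.31 for *Cdhr1*. In the 7 libraries they were -0.82 ± 0.56, -0.61 ± 0.68, -0.57 ± 0.48, -0.65 ± 0.32 and -0.18 ± 0.27 in the same order of genes. Over the other 5 genes the 9-library values ran from -0.35 (*Omp*) to 0.21 (*Doc2g*), and the 7-library values from -0.33 (*Sp8*) to 0.36 (*Doc2g*). In edgeR 0 of 22367 genes (0%) were called in the 9 libraries, with 1840 at an unadjusted p under 0.05 and 1 called by DESeq2, and 53 of 21913 genes (0.242%) in the 7, where DESeq2 called 223. No gene of the 10 separated the labelled groups without overlap, against 2.29% of all genes in the 9 libraries and 10.3% in the 7.

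The PWS-IC values of these 5 genes depended on 1_1_IC, the only high library of litter 1. Without it, the 9-library log2 fold changes became -0.13 for *Tbx21*, 0.21 for *Cdhr1*, 0.15 for *Ms4a15* and 0.16 for *Prss56*, so that the last 3 changed sign, and -0.24 for *Frmd7*. Without it in the 7 libraries they became -0.13 for *Tbx21*, 0.14 for *Cdhr1*, -0.02 for *Ms4a15*, -0.24 for *Prss56* and -0.37 for *Frmd7*. Within litter 4, where both genotypes had 2 libraries and no label was in doubt, the log2 difference, PWS-IC minus wild type on log2(CPM + 0.05), was -0.07 for *Tbx21*, 0.08 for *Cdhr1*, -0.13 for *Ms4a15*, -0.33 for *Frmd7* and -0.67 for *Prss56*. Within litter 1 without the libraries in doubt (1 PWS-IC, 2 wild types) it was -1.19 for *Tbx21*, -0.44 for *Cdhr1*, -1.50 for *Ms4a15*, -1.12 for *Frmd7* and -0.09 for *Prss56*. *Frmd7* was thus lower in PWS-IC brains of both litters, with no overlap within either. *Fezf1* was higher in both, also without overlap (0.32 in litter 1, 0.21 in litter 4). *Eomes* separated within both litters too, but in opposite directions (-0.21 in litter 1, 0.23 in litter 4). With 1_3_IC and 1_7_IC kept, the groups overlapped within litter 1 for *Frmd7* and *Fezf1*. With 1 or 2 libraries a side groups separate easily, and the share of all genes that did so was not computed. Both PWS-IC libraries of litter 4 were female and both wild types male. With sex as a further term the 7-library values moved to -2.53 for *Tbx21*, -1.23 for *Cdhr1*, -4.36 for *Ms4a15*, -2.87 for *Prss56* and -1.85 for *Frmd7*, in a fit whose only wild-type female was 1_1_IC.

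**Figure D2:**
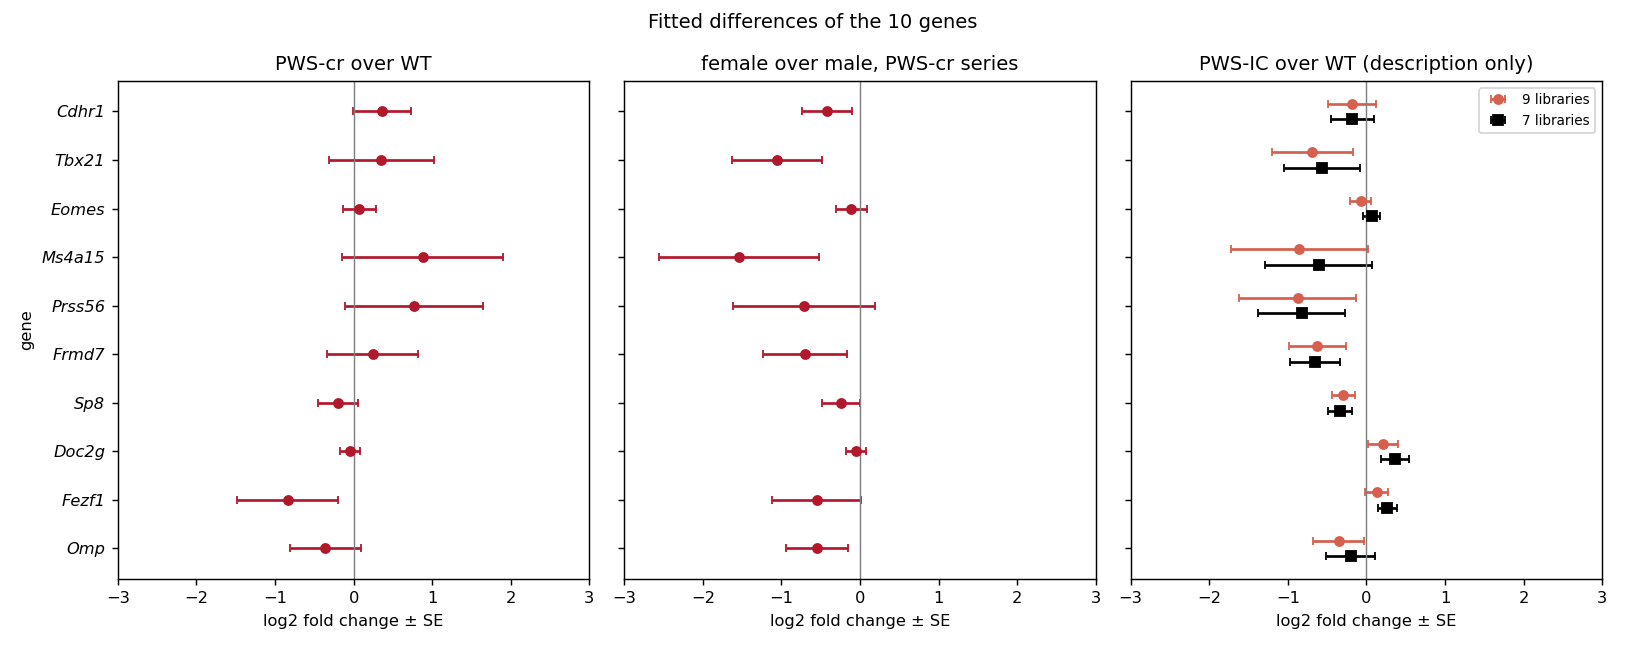
Fitted log2 fold changes (points) with their standard errors (bars) for PWS-cr over wild type, for female over male brains of the PWS-cr series, and for PWS-IC over wild type in all 9 libraries (circles) and in the 7 without 1_3_IC and 1_7_IC (squares). PWS-cr values run from -0.84 in *Fezf1* to 0.88 in *Ms4a15*, all 10 sex values lie below 0, and the PWS-IC values are a description because they chose the genes.

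The spread between libraries of one series was wide in most of these genes. It is a description, since the genes were chosen in part on varying together between libraries. Between the highest and the lowest library of the PWS-cr series *Ms4a15* differed by 97.7 times (95% exact counting interval 17.1 to 3904, from 83 and 1 counts) and *Prss56* by 63.6 times (17.2 to 532). *Tbx21* differed by 11.2 times (6.06 to 23.1), *Frmd7* by 9.51 times (5.46 to 17.9) and *Cdhr1* by 3.90 times (3.61 to 4.22). In the PWS-IC series the ratios were 82.4, 27.7, 9.12, 4.74 and 3.54 in the same order of genes, so each of the 5 spread widely in both series. *Doc2g* differed by only 1.51 times (1.24 to 1.84) in the PWS-cr series and 2.18 times in the PWS-IC series. These intervals cover counting error only, and the extremes were taken from each series' own libraries.

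**Figure D3:**
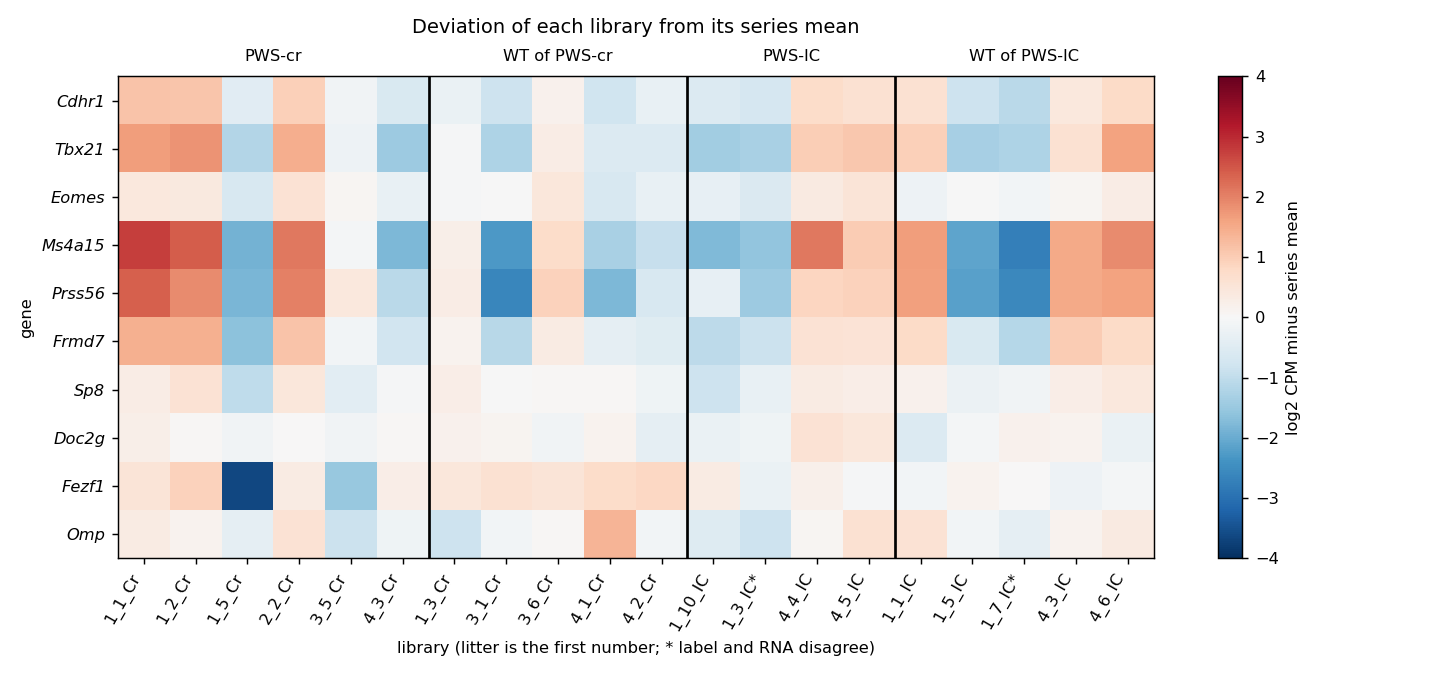
Deviation of each library from its series mean in log2 CPM, with genes down the page and libraries by group from left to right, the mutant group left of its wild types. Rows of *Cdhr1*, *Tbx21*, *Ms4a15*, *Prss56* and *Frmd7* share their red columns (1_1_Cr, 1_2_Cr, 2_2_Cr, more faintly the wild type 3_6_Cr, 1_1_IC and the 4 libraries of litter 4 in the PWS-IC series), while the lowest cell of *Fezf1* is 1_5_Cr.

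The 10 genes did not form a single group by their co-variation. Over the 20 libraries, with each series' mean subtracted, the 10 pairs among *Tbx21*, *Cdhr1*, *Ms4a15*, *Prss56* and *Frmd7* had Pearson r of 0.91 to 0.976 (median 0.954; Spearman's rho 0.853 to 0.964), 0.905 to 0.985 within the 11 PWS-cr series libraries and 0.892 to 0.989 within the 9 PWS-IC series libraries. Without the 2 libraries farthest from the median of the genes' mean, they kept r of 0.893 to 0.977. The 35 other pairs ranged from 0.0382 to 0.834 (median 0.391). All 45 pairs are a description: the points share litters and libraries, and similarity was part of how the genes were chosen.

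Against the mean of the other 9 genes, r was 0.949 for *Frmd7*, 0.928 for *Tbx21*, 0.907 for *Ms4a15*, 0.871 for *Cdhr1* and 0.814 for *Prss56*. *Sp8* (0.855) and *Eomes* (0.778) followed the mean as well, with far smaller swings. *Omp* (0.466), *Fezf1* (0.356) and *Doc2g* (0.254) followed it weakly, and *Fezf1* gave 0.519 in the PWS-cr series and -0.204 in the PWS-IC series. For *Fezf1* r was 0.0804 without the 2 farthest libraries, of which 1_5_Cr was one, so that its relation rested on those libraries. As a set that varies together, the label therefore described 7 of the 10 genes, with *Omp* following the others in the PWS-IC series (0.822) but weakly in the PWS-cr series (0.266), and *Fezf1* and *Doc2g* apart from them.

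**Figure D4:**
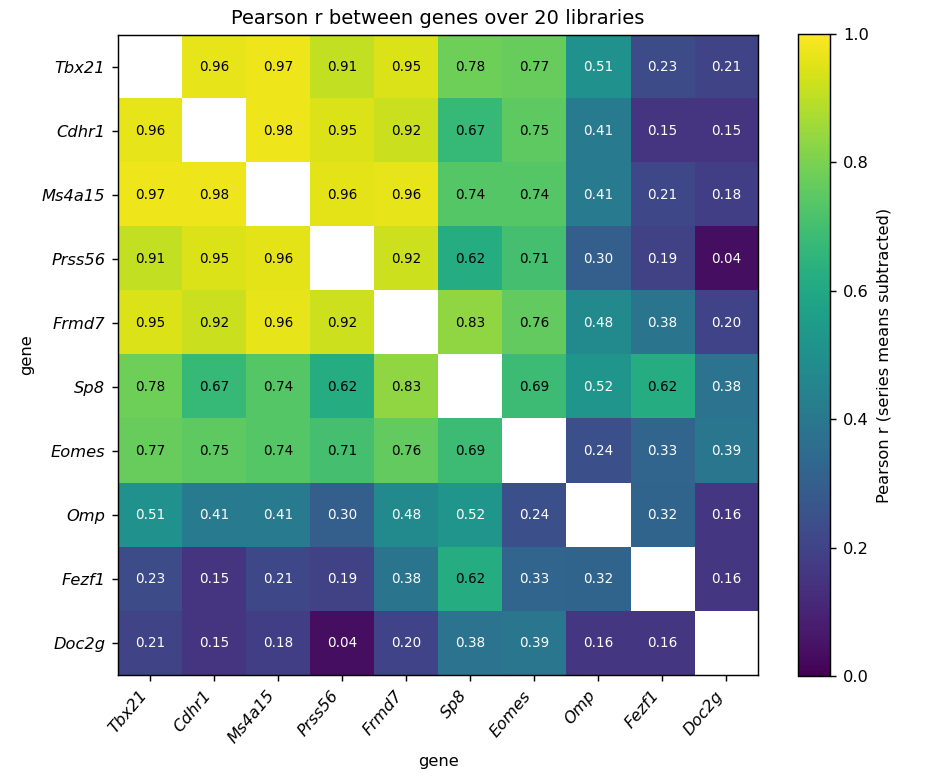
Pearson r of log2 CPM between each pair of genes over the 20 libraries, series means subtracted, from dark (low) to bright (high), with the value in each cell. The first 5 genes form a bright block with r of 0.91 or more, *Sp8* and *Eomes* stand between, and *Omp*, *Fezf1* and *Doc2g* have r of 0.621 or less with every other gene.

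Among 15460 other genes with a mean of at least 1 CPM in both series, the 10 most like the members' mean were *Sall1* (r = 0.833), *Gcnt1* (0.831), *Cpne6* (0.802), *Syt10* (0.801), *Erbb3* (0.80), *Tfap2c* (0.772), *Gcnt4* (0.764), *Etv1* (0.758), *Filip1l* (0.745) and *Tarbp1* (0.734) over 20 libraries. The median r over all these genes was -0.0673, and 5.45% of them had r above 0.5. Few of the 10 stayed among the 10 most like the members when either series was used alone. *Sall1* encodes a zinc finger factor, *Erbb3* a neuregulin receptor of glia, *Tfap2c* an AP-2 factor and *Etv1* an ETS factor of bulb interneurons. In the PWS-cr series *Sall1* spanned 30.5 to 41.1 CPM and *Erbb3* 1.47 to 6.51 CPM. *Igf1*, the insulin-like growth factor gene, had r of 0.721 and 24.8 to 43.7 CPM in the PWS-cr series and is named after its value was seen.

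Markers of the bulb followed the members unevenly. Of 21 genes of bulb interneurons and migrating neuroblasts 10 had r above 0.5 (47.6%), among them *Sp9* (0.64) and *Prokr2* (0.624), while *Pax6* (-0.12), *Th* (0.0845) and *Calb2* (-0.22) did not. Without 1_1_Cr and 1_5_Cr, the 2 libraries farthest from the median of the members' mean, 5 of the 21 did, a check added for the lists after seeing the data, and the summed level of the list had r of 0.721 in the PWS-cr series and 0.376 in the PWS-IC series. That sum was mostly 1 gene, *Dcx*, with medians of 1476 CPM in the PWS-cr series and 1541 CPM in the PWS-IC series and an r of 0.446 over the 20 libraries. Of 16 genes of bulb projection neurons, 3 had r above 0.5 (18.8%): *Nmb* (0.687), *Nrp1* (0.524) and *Reln* (0.511), whereas *Tbr1* (0.379), *Slc17a7* (0.372), *Barhl2* (0.0858) and *Lbhd2* (-0.207) lay lower, down to -0.453 in *Lhx1* and *Lhx5*. The list's median was 0.0678, and without these 2 libraries only *Nmb* (0.587) stayed above 0.5. Several genes of this list are also made in cortex, thalamus or hindbrain. Of 11 genes of ensheathing glia and the nerve layer, 5 had r above 0.5 (45.5%), among them *Cdh19* (0.828), *Erbb3* (0.80), *Mybpc1* (0.706) and *Frzb* (0.655), while *Npy*, an ensheathing glia gene that cortical interneurons also express, had -0.161. The list's median was 0.0221, with *S100b* at -0.571, *Fabp7* at -0.412 and *Ngfr* at -0.398, and its count was also 5 without these 2 libraries. *Dcx*, *Nmb*, *Nrp1*, *Lhx1*, *Lhx5*, *Cdh19*, *Mybpc1*, *S100b*, *Fabp7* and *Ngfr*, and *Krt5*, *Trpc2*, *Cyp2g1*, *Rtp1* and *Rlbp1* below, are named after their values were seen.

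Genes of the olfactory epithelium mostly did not follow the members. Of 18 such genes 0 had r above 0.5 (1, *Cnga2* at 0.511, without these 2 libraries), with a median of -0.201, and *Gng8* (-0.328), *Gnal* (0.33) and *Cnga2* (0.441) stood around it. *Cnga2*, a channel subunit of mature sensory neurons, had at most 0.801 CPM, and *Krt5* of basal cells and *Trpc2* of the vomeronasal organ were below 0.1 CPM in all 20 libraries. Other genes of the list rose in single libraries: in the PWS-cr series *Cyp2g1* reached 1.29 CPM against a median of 0.0551 CPM, and *Rtp1* reached 0.764 CPM against 0.270 CPM. Of 10 genes of rostral forebrain patterning 1 had r above 0.5 (10%; 0 without these 2 libraries), with *Six3* at 0.299, and of 13 genes of cortical progenitors and young cortical neurons 1 did (7.69%), with *Neurog2* at 0.29 and *Insm1* at -0.0108. Of 15 genes of the retina and eye 0 did, with *Rax* at 0.21 and *Crx* at -0.312, although *Cdhr1*, *Prss56* and *Frmd7* are also genes of the eye. The summed level of the eye list was 42.7 to 51.6 CPM in PWS-cr brains and 37.9 to 45.9 CPM in their wild types, and 41.3 to 57.5 CPM in the libraries labelled PWS-IC and 39.6 to 47.3 CPM in those labelled wild type, all 15 genes having counts in both series. *Rlbp1* made up most of this sum, with medians of 30.4 CPM in the PWS-cr series and 28.5 CPM in the PWS-IC series. The sum therefore hides uneven genes: *Crx* had 2.12 CPM in 4_2_Cr and 0.717 CPM in 1_5_Cr, against at most 0.170 CPM in the other PWS-cr series libraries. The part of eye tissue in the members' levels was not tested.

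**Figure D5:**
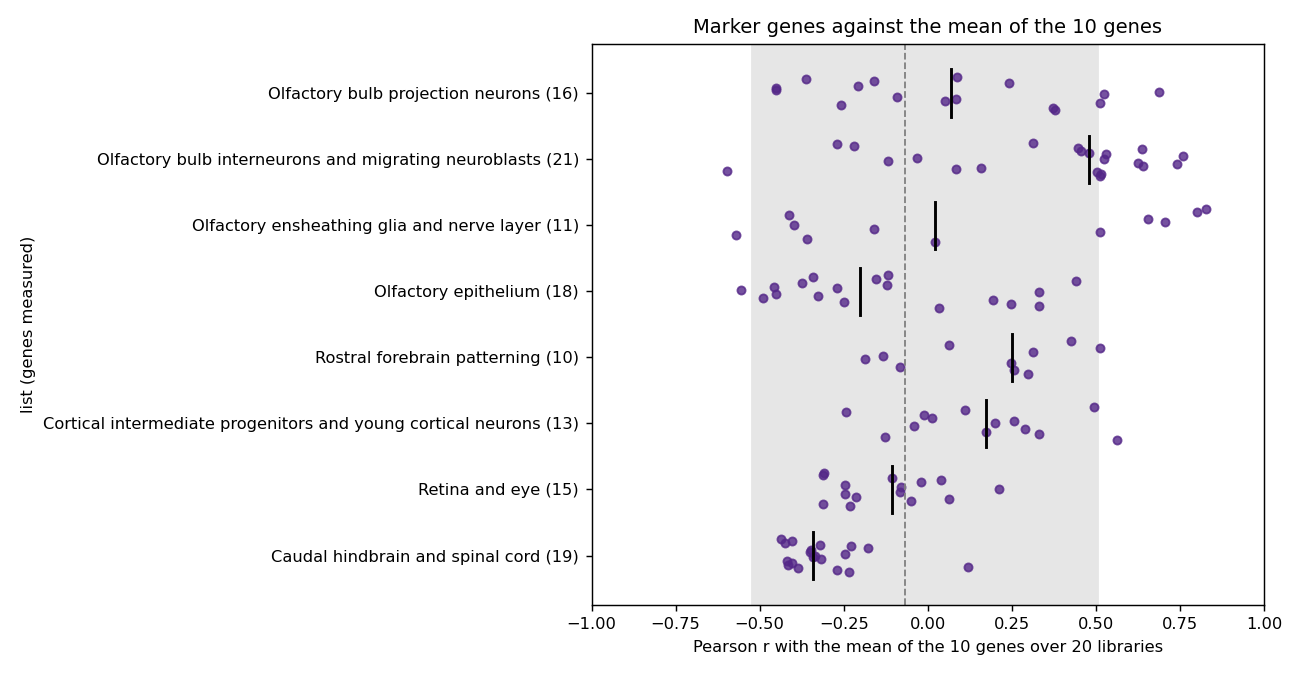
Pearson r of each marker gene (points) with the mean of the 10 genes over 20 libraries, by list, with the list's median as a bar. The grey band holds the middle 90% of 15460 genes (-0.524 to 0.507) and the dashed line their median: 10 interneuron genes lie above 0.5, no epithelium, eye or *Hox* gene does.

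At the other end of the brain, the 19 *Hox* genes of caudal hindbrain and spinal cord had a median r of -0.342 with the members over 20 libraries, and 0 of 19 had r above 0.5. Their summed level had r of -0.661 with the members' mean in the PWS-cr series but 0.209 in the PWS-IC series, on the log2 scale. It was 1.27 to 123 CPM in PWS-cr brains and 2.48 to 48.9 CPM in their wild types, and 26.6 to 137 CPM in the libraries labelled PWS-IC and 4.73 to 86.4 CPM in those labelled wild type. *Hoxb8* alone spanned 0.0219 to 5.40 CPM in PWS-cr brains and 0.0186 to 1.67 CPM in their wild types. PWS-cr brains with the highest member levels (1_1_Cr and 1_2_Cr) had *Hox* sums of 1.27 and 1.92 CPM, yet the wild-type library 3_1_Cr, the lowest for *Ms4a15* and *Cdhr1*, had 2.48 CPM. How far caudal content of the tissue bears on the members' levels was not tested.

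None of the 8 marker lists had a gene called by edgeR in any contrast. In PWS-cr brains, 10 of 11 ensheathing glia genes were higher than in wild types (median log2 fold change 0.29) and 16 of 21 interneuron genes lower (median -0.13), against 51.9% of all genes higher. Of the 19 *Hox* genes 16 were higher in PWS-cr brains (median 1.64). At an unadjusted p under 0.05 there were 5 of 19, against 459 of 22172 genes in all, and 0 after adjustment. These genes share the same few brains, so the counts are not of independent observations. In the 16 *Hox* genes tested in the 9 PWS-IC libraries, 16 were higher in those labelled PWS-IC (median 0.73), against 50.7% of all genes. In the 7 libraries 9 of 15 were (median 0.07), against 50.3% of all genes. The 2 libraries left out there had the highest and the lowest *Hox* sum of the series, 137 CPM in 1_3_IC and 4.73 CPM in 1_7_IC.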

How the data were processed

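RNA of whole newborn brains was sequenced as unstranded, polyadenylated paired-end libraries. Raw counts per gene came from the authors' featureCounts step after STAR alignment to mm10, and the authors tested them with DESeq2 and left 1 library per series out after clustering; the deposited tables hold raw counts and TPM for 20 of 22 labelled libraries. The annotation and tool versions were not given in the sources used here. Columns of the authors' own fold changes and p-values and 40 further per-sample columns of other normalizations were not used.

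The members and marker lists were chosen with earlier results of these data known. Each series was fitted apart in edgeR 4.0.16 (R 4.3.3; quasi-likelihood test, TMM scaling, litter and genotype as terms, sex added for the sex contrast) on genes that reached 10 counts or more in 4 or more libraries, with Benjamini-Hochberg adjustment over all genes and a threshold of 0.05. Standard errors were the fold change over the square root of F, and 95% intervals used the fit's residual degrees of freedom. DESeq2 1.42.0 was an alternative, beside other filters, scalings and terms. CPM are counts scaled by TMM library size. Pearson r used log2 CPM (prior count 2) after subtracting series means. Named were the 10 genes, 22 list genes picked by name, and the 10 genes with the highest r to the members' mean. Some results of marker list genes are not reported here. The fits were tested on simulated data. Each library was 1 pup, so p-values set a difference against the spread between pups of these few litters. Counting intervals (exact, 95%) cover counting error only.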

Additional observations from a re-analysis of the deposited data

Results flagged for a closer look

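*Omp* in the wild-type library 4_1_Cr had 1.006 CPM from 54 counts, far from the 4 other wild-type libraries of the PWS-cr series (0.188 to 0.378 CPM). Its gap to the nearest library was 0.767 of the group's range. It was the only such sample among 40 groups of a gene and a genotype. Chance gives such a sample in about 1 in 20 groups, so 1 in 40 is not above chance.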

How the results depend on the processing

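In no alternative was any of the 10 genes called for PWS-cr genotype or sex. Genes called over all genes for PWS-cr genotype (3) numbered 7 by DESeq2, 10 with every gene of at least 1 count, and 2 to 4 without each library in turn. For sex (7) they numbered 16 by DESeq2, 70 with every gene, 2 with at least 10 counts in every library, 11 without litter, and 7 to 42 without each library, with 42 without 4_3_Cr. For PWS-IC as labelled (0) they numbered 1 by DESeq2, 471 with every gene, and 0 to 1 without each library. In the 7 libraries (53) they numbered 223 by DESeq2, 978 with every gene, 31 with at least 10 counts in every library, 174 with a sex term, and 28 to 55 without each library, with 28 without 4_3_IC and 31 without 4_6_IC. The causes were not tested.

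Among members, the PWS-cr log2 fold change changed sign for *Sp8* (0.02313) and *Doc2g* (0.01031) without litter and for *Tbx21* (-0.01058) with sex. The sex difference did so for *Prss56* (0.03553) and *Eomes* (0.06551) without litter. Without each library in turn, PWS-cr values ranged from -0.3628 to 0.77 for *Tbx21*, -0.2648 to 1.563 for *Ms4a15* and -0.1064 to 0.4892 for *Frmd7*, with the lowest of each without 1_3_Cr, and from -1.031 to 0.06766 for *Omp*. Sex values ranged from -1.821 to 0.3511 for *Prss56*, -0.3609 to 0.1044 for *Eomes*, -0.7789 to 0.01858 for *Sp8* and -0.2674 to 0.009943 for *Doc2g*, the highest of each without 1_5_Cr. Of the 10 genes most like the members, 1 kept its place with the PWS-cr series alone, 2 with the PWS-IC series alone, and 7 with Spearman's rho. No paired analysis was possible because equal replicate numbers mark different pups, and litter is a term of the fit. *Ms4a15*, *Prss56* and *Omp* rest on few counts, which limits their ratios.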
